A study of Mus musculus with 24 samples.

Results

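The 35 genes described here encode the enzymes of glycolysis, the enzymes and phosphorylase kinase subunits of glycogen turnover, the enzymes that set the level of fructose 2,6-bisphosphate, muscle fructose 1,6-bisphosphatase and the lactate transporters. They were taken by gene symbol from a table of 24016 symbols, with the transcript of the highest mean RPKM standing for each gene. RPKM is the number of reads per kilobase of exon and per M reads of the library. Of the 35, 34 had 1 RPKM or more in no fewer than 6 libraries and were tested together with 12348 other genes that passed this filter. Aldoc, brain-type aldolase, did not pass.

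Poly(A) RNA came from muscle of C57BL/6-background mice on day 7 after the femoral artery of 1 hindlimb had been ligated. The 4 groups of 6 libraries were ischemic gastrocnemius of mice with type 2 diabetes (T2DM), ischemic gastrocnemius of control mice, normoxic adductor of T2DM mice and normoxic adductor of control mice. All mice had the ligation. How the mice became diabetic is not given in the labels, nor whether equal sample numbers in gastrocnemius and adductor mark 1 mouse, so p-values here describe the spread between samples, which may in part be technical. Every gastrocnemius was ischemic and every adductor normoxic, so the kind of muscle and the ischemia cannot be told apart. In whole muscle, fewer cells of a type and less RNA per cell cannot be told apart either.

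Glycolysis breaks glucose down to pyruvate in the cytosol, and lactate dehydrogenase turns pyruvate into lactate when it is not oxidised in mitochondria. Fast skeletal muscle fibres hold these enzymes at very high levels and draw much of their glucose from glycogen, which phosphorylase cleaves after phosphorylase kinase has activated it. Several steps have a muscle form and a form used by other cells, among them phosphofructokinase, phosphoglycerate mutase, enolase and glycogen phosphorylase.

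The members spanned most of the range of the table. Aldoa (aldolase A, the muscle and red cell form) lay at 1807, 3954 and 6905 RPKM in T2DM gastrocnemius, at 1535, 3772 and 6679 RPKM in control gastrocnemius, at 5107, 7988 and 10434 RPKM in T2DM adductor and at 6724, 9258 and 14112 RPKM in control adductor, given here and below as the lowest, the median and the highest of 6 libraries. On mm9 the Aldoa transcript lies at chr7:133938748-133943961. Aldoc lay at 0.225, 0.396 and 0.784 RPKM in T2DM gastrocnemius, at 0.208, 0.549 and 0.777 RPKM in control gastrocnemius, at 0.136, 0.199 and 0.331 RPKM in T2DM adductor and at 0.158, 0.278 and 0.411 RPKM in control adductor. Aldoa was thus the most abundant member by its median in all 4 groups, and Aldoc was near the detection floor, since 3 reads on a transcript of 1 kb come to 0.192 RPKM in the deepest library and to 0.421 RPKM in the shallowest. The phosphoglucomutases are named here as in the table. The gene that the table calls Pgm2, with an overall mean of 323 RPKM, is Pgm1 in current RefSeq, and the gene that the table calls Pgm1, with 2.77 RPKM, is Pgm2 there.

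The libraries formed 2 sets, which carry no label. The first principal component of the deviations from the group means over 12348 genes that are not members held 56.3% of the variance within groups, and the libraries separated on it by a gap of 52.6, against 17.8 for the next widest gap. The first set held 14 libraries, which were numbers 1 to 4 of the T2DM mice and 1 to 3 of the control mice in both muscles, and the second set held the other 10. Library totals ran from 12 to 15.6 M reads in the first set and from 7.13 to 11.8 M in the second. Gapdh, glyceraldehyde 3-phosphate dehydrogenase, split the libraries in the same way, with 677 to 1757 RPKM in the first set and 0.365 to 13.7 RPKM in the second. In T2DM gastrocnemius it had 1087, 1757, 789 and 695 RPKM in the first set and 3.71 and 9.8 RPKM in the second. In control gastrocnemius it had 735, 677 and 1689 RPKM in the first set and 0.802, 0.556 and 0.687 RPKM in the second. The same split appeared in the adductor, with 966, 1263, 1267 and 871 RPKM in the first set and 13 and 13.7 RPKM in the second for T2DM mice. Control adductor had 1378, 1743 and 1180.0 RPKM in the first set and 0.831, 0.365 and 0.777 RPKM in the second. No value of Gapdh overlapped between the sets.

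**Figure D1:**
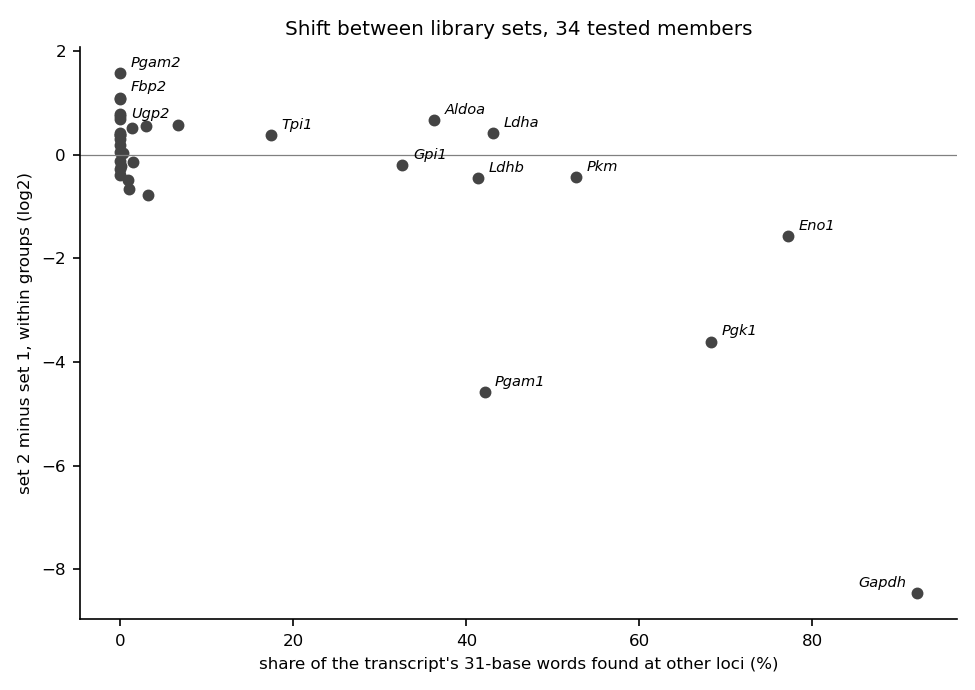
Log2 difference between the second and the first library set (vertical axis) against the percentage of each member's 31-base words that also occur at other loci (horizontal axis), with 1 point per member. Gapdh, Pgam1 and Pgk1 lie lowest, at -8.46, -4.58 and -3.61, and Pgam2 lies highest among the members with no shared words, at 1.58.

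The members that stood lowest in the second set, Gapdh, Pgam1, Pgk1 and Eno1, had sequence that recurs in transcripts of other loci. In a search of GENCODE transcripts for words of 31 bases, 92.1% of the words of Gapdh also occurred in transcripts of other loci, of which 172 shared at least 5% of the words and 164 of these were pseudogenes. Gapdh was lower by 8.46 on the log2 scale in the second set than in the first. The next lowest members were Pgam1 (the non-muscle phosphoglycerate mutase), with 42.1% of words shared and a difference of -4.58, and Pgk1 (phosphoglycerate kinase), with 68.3% and -3.61. Eno1, the enolase of most tissues, shared 77.2% of its words and differed by -1.57. Sharing did not always go with a lower value, as Ldha (lactate dehydrogenase A) shared 43.1% and differed by 0.42. Pkm, Ldhb, Aldoa and Gpi1 also shared at least 20% of their words, with differences of -0.43, -0.46, 0.68 and -0.20. Of all tested genes with a matched transcript, 6.79% shared at least 20%, and their median difference between sets was -0.70, against -0.09 for the rest. Set differences were not confined to such genes, since Pgam2 (muscle phosphoglycerate mutase), Fbp2 (muscle fructose 1,6-bisphosphatase) and Ugp2 (UDP-glucose pyrophosphorylase) shared no words and differed by 1.58, 1.11 and 1.08. Pygl and Pygb, with 3.15% and 0.98% of words shared, differed by -0.78 and -0.66. How reads with several matches were treated is not given in the sources used here, and the part of such reads in the set differences was not tested. Within-set values for the muscle comparison are therefore given for Gapdh, Pgam1 and Eno1. For the other members with copies, the fit with terms for the set is given for Pgk1 and where it changed a call.

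The promoters of the members were read from RefSeq, on build GRCm38.p6, from 250 bases before to 50 bases after each transcription start. CANNTG, the E-box that MyoD-family factors bind, occurred on either strand in 72.5% of 51 member promoters and in 72.3% of all 32851 promoters of that length. The muscle forms Pgam2 and Pygm are shown with their counterparts Pgam1 and Pygb, with the letters of each CANNTG in capitals. The ratio within each pair separated the muscles within each library set. The ratios of Hk2 to Hk1, Pfkm to Pfkp, Eno3 to Eno1 and Pygm to Pygl did so too, and their other promoters are not shown. The pairs shown are therefore examples and do not stand for the muscle forms as a set. The Pgam2 promoter (chr11:5803747-5804046, minus strand) held 5 matches, a number reached by 2.1% of all promoters. The Pygm promoter (chr19:6384158-6384457, plus strand) held 3, a number whose share over all promoters is not given here. The promoters of Pgam1 (chr19:41911621-41911920, plus strand) and Pygb (chr2:150786546-150786845, plus strand) held none in this window.
Pgam2: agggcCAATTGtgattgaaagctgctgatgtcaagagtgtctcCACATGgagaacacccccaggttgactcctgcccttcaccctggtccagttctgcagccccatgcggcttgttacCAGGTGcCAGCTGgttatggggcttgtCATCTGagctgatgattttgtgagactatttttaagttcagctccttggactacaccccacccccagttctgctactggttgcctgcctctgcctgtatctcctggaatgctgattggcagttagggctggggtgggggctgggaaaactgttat
Pgam1: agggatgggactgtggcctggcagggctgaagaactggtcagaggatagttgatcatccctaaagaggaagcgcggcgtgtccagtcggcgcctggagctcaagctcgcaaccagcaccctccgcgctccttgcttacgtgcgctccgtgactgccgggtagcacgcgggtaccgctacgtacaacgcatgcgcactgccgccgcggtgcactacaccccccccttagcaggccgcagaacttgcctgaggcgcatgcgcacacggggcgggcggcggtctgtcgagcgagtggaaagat
Pygm: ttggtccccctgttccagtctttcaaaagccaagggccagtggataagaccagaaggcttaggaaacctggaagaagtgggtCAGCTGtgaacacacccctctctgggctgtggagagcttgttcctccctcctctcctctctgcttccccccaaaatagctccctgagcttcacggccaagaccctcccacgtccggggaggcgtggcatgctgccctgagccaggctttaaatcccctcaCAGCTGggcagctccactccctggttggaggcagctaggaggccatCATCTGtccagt
Pygb: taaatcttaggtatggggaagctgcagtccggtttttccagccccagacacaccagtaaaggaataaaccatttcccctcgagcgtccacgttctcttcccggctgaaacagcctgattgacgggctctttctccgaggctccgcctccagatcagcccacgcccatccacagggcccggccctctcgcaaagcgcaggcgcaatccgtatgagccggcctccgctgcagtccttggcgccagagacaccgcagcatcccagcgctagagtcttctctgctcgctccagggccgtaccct

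ACGTG, the core of the element that hypoxia-inducible factors bind, occurred on either strand in 47.1% of the 51 member promoters, which belonged to 21 of the 35 members, and in 19.6% of all promoters. The first Ldha promoter (chr7:46845554-46845853, plus strand) held 3 such stretches. Matches were counted on each strand, so that CACGTG, which reads the same on both strands and is also a CANNTG, counts as 2, and by that count it held 5 matches, a number reached by 0.183% of all promoters. This promoter is shown because Ldha makes lactate and was called lower in the ischemic gastrocnemius of control mice. That call ended in the fit with terms for the library set, and the pooled fit gave no call for Ldha in T2DM mice. Capitals mark ACGTG or its reverse complement CACGT. A match of letters is not a binding site.
Ldha: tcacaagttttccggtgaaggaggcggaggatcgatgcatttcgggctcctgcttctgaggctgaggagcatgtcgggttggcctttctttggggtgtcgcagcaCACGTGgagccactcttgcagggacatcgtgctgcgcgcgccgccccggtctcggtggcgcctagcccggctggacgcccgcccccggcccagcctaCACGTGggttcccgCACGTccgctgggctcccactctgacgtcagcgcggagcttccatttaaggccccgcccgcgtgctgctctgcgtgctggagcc

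The first comparison set ischemic gastrocnemius against normoxic adductor within each mouse group. Members of glycogen turnover and several muscle forms of glycolytic enzymes were lower in gastrocnemius, among them Pygm, Hk2 and Pfkm, while their counterparts Pygb, Pygl, Hk1, Pfkp and Pfkl were higher. The split was not complete, as Ldhb, the heart form of lactate dehydrogenase, was lower in both mouse groups, and the muscle forms Pgam2 and Eno3 were not called in T2DM mice. Differences between muscles are given on the log2 scale as gastrocnemius minus adductor ± SE, so that 1 unit is a factor of 2. Among the 34 tested members, 7 were higher in gastrocnemius and 16 lower in T2DM mice, and 7 were higher and 20 lower in control mice (limma on log2 of RPKM + 0.5, Benjamini-Hochberg adjusted p under 0.05). Over all 12382 tested genes, 48.1% were higher and 8.83% lower in T2DM mice, and 54.4% were higher and 8.7% lower in control mice. The median log2 difference of the members was -0.48 in T2DM mice and -0.81 in control mice, against 0.55 and 0.66 over all genes. Without T2DM gastrocnemius 2 the members' median in T2DM mice was -0.88, against 0.58 over all genes. Without control gastrocnemius 3 the members' median in control mice was -1.11, against 0.71 over all genes. Of the higher members, Pgm1 passed the filter on low values only through gastrocnemius, since 2 of 12 adductor libraries reached 1 RPKM, so its call is part of how it was admitted. Hk1, Pfkl, Pfkp, Eno1, Pygl, Pygb and Pgm1 were higher in both mouse groups. Hk2, Pfkm, Aldoa, Pkm, Ldhb, Pygm, Gyg, Gbe1, Phka1, Phkb, Phkg1, Pgm2, Pfkfb1, Pfkfb3 and Fbp2 were lower in both. Ugp2 was called lower in T2DM mice, and Tpi1, Eno3, Ldha, Gys1 and Slc16a3 were called lower in control mice, but the difference between mouse groups was called for 0 members.

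The medians depend on the scale. RPKM divides every gene by the same library total. After median-of-ratios scaling the median of all genes moved to -0.04 in T2DM mice and -0.02 in control mice, and 27.3% of genes were higher and 26.5% lower in T2DM mice, and 28.3% higher and 26.5% lower in control mice. The members' median on that scale was -1.16 in T2DM mice and -1.60 in control mice. There 6 members were higher and 19 lower in T2DM mice, and 6 were higher and 24 lower in control mice. The higher calls lost were Pfkl in T2DM mice, at 0.51 (adjusted p = 0.0826), and Pygl in control mice, at 0.56 (adjusted p = 0.152). With terms for the library set in the fit, 8 members were higher and 14 lower in T2DM mice, against 60.5% and 9.26% of all genes, and 8 were higher and 16 lower in control mice, against 66.1% and 7.12% of all genes. With the sample number as a block, 8 were higher and 17 lower in T2DM mice, against 56.7% and 11.9% of all genes, and 8 were higher and 23 lower in control mice, against 62.9% and 11.2%. The blocked fit added Pgam1 as higher in both mouse groups, Gys1 as lower in T2DM mice, and Pgam2, Pgk1 and Ugp2 as lower in control mice.

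**Figure D2:**
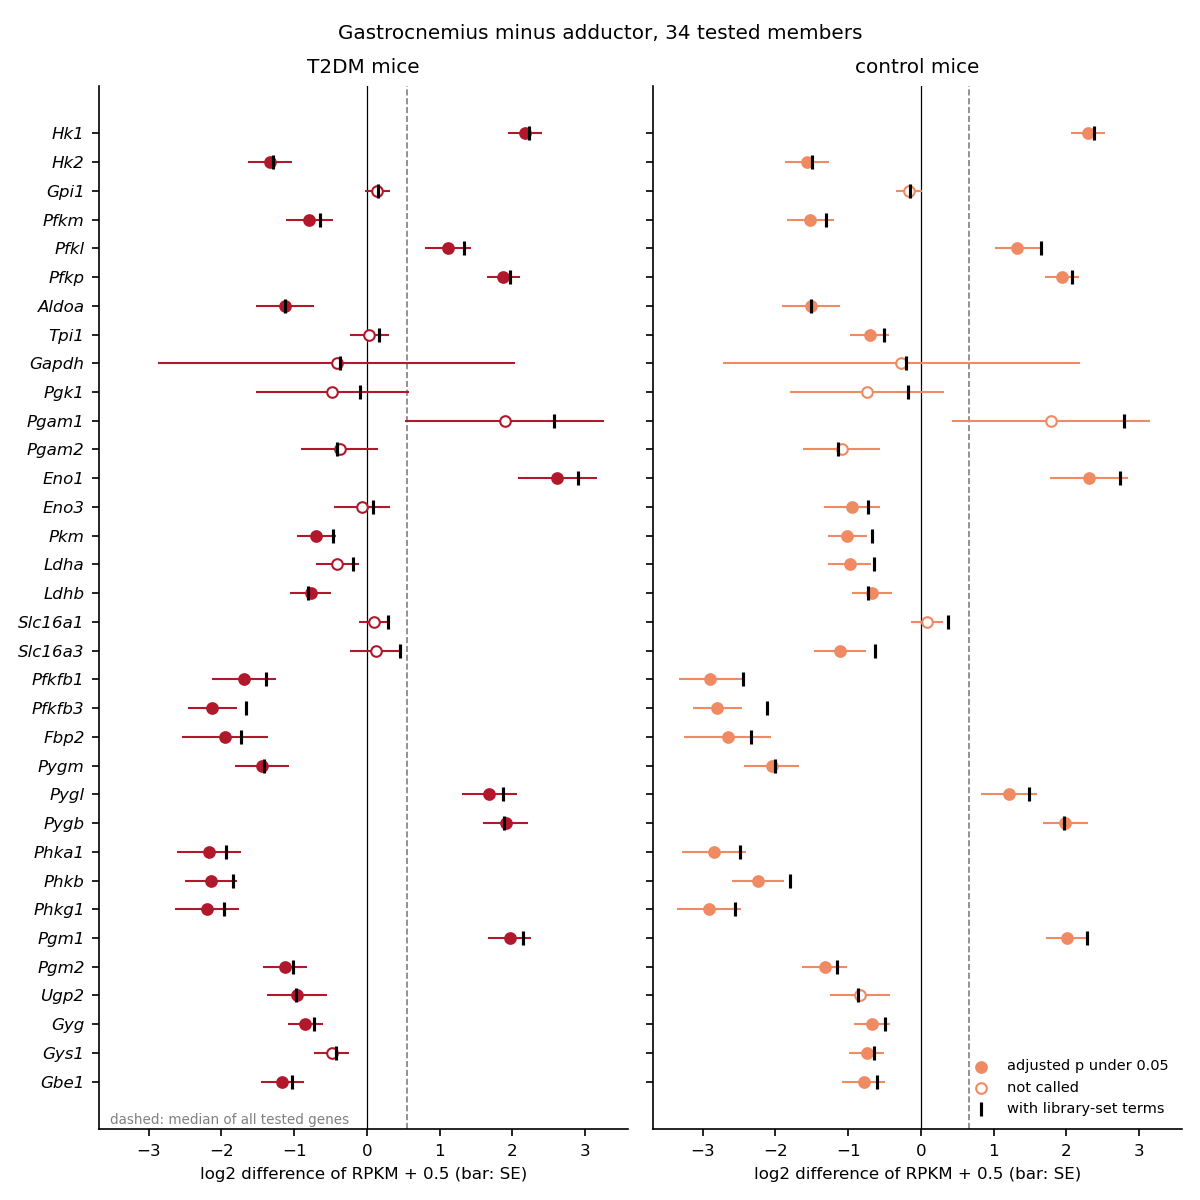
Log2 difference in RPKM, gastrocnemius minus adductor, of the tested members (horizontal axis, with bars of 1 SE from limma) in T2DM mice and in control mice, ordered by pathway step. Filled points passed the adjusted test, black ticks give the fit with library-set terms and the dashed line is the median of all tested genes. Phkg1, Phka1, Phkb and Pfkfb3 lie farthest below 0 in T2DM mice, and Phkg1, Pfkfb1, Phka1 and Pfkfb3 in control mice. In both, Hk1, Pfkp, Pgm1, Pygb and Eno1 lie farthest above 0 among the called members.

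Markers of regenerating muscle, macrophages and fibroblasts were mostly called higher in gastrocnemius. Beside the counts below, 48.1% of all tested genes were higher and 8.83% lower in T2DM mice, and 54.4% and 8.7% in control mice. All 6 regenerating muscle genes in the table were higher in gastrocnemius in both mouse groups, with summed levels of 479 to 1203 RPKM in T2DM gastrocnemius and 13.3 to 54.9 RPKM in T2DM adductor. In control mice the sums were 561 to 1183 RPKM in gastrocnemius and 12.8 to 119.6 RPKM in adductor, so neither mouse group overlapped between muscles. Of the macrophage markers, 7 of 8 were higher in both mouse groups, with sums of 279 to 1162 RPKM in T2DM gastrocnemius and 45.5 to 96 RPKM in T2DM adductor, and of 349.9 to 1398 RPKM in control gastrocnemius and 27.1 to 231 RPKM in control adductor. All 6 fibroblast markers were higher in both mouse groups, with sums of 1300.2 to 5011 RPKM in T2DM gastrocnemius and 236 to 453 RPKM in T2DM adductor, and of 1753 to 6026 RPKM in control gastrocnemius and 182 to 924 RPKM in control adductor. Of the 10 fast fibre genes, 4 were lower in T2DM mice and 6 in control mice, with sums of 12381 to 50958 RPKM in T2DM gastrocnemius and 35031 to 70116 RPKM in T2DM adductor, and of 9479 to 41457 RPKM in control gastrocnemius and 44138 to 84292 RPKM in control adductor. Of the 6 endothelial markers, 4 were higher in T2DM mice and 3 in control mice, the latter near the share of all genes. Of 8 slow fibre genes, 3 were higher and 3 lower in T2DM mice, and 4 higher and 3 lower in control mice. Of the 4 neutrophil markers in the table, 1 was higher in each mouse group, and 0 of 5 tested erythroid and 0 of 5 adipocyte markers were called. No marker was at 0 in all libraries of a group. The part of these cells in the results on the members was not tested.

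Within the first set, 1 gastrocnemius library of each mouse group stood nearer to the adductor than its group mates. T2DM gastrocnemius 2 had a fast fibre sum of 38482 RPKM, against 21418, 13912 and 12381 RPKM in the other T2DM gastrocnemius libraries of its set. Control gastrocnemius 3 had a fast fibre sum of 39496 RPKM, against 11429 and 9479 RPKM in the others of its set. Their regenerating muscle sums, 479 and 561 RPKM, were the lowest of the 6 libraries in their groups. Fast fibre sums of the second-set libraries were 50958 and 42247 RPKM in T2DM gastrocnemius and 41457, 37975 and 26458 RPKM in control gastrocnemius. With both libraries left out, 7 members were higher and 17 lower in T2DM mice, against 48.8% and 10.1% of all genes, and 7 were higher and 21 lower in control mice, against 54.5% and 9.63%. That choice was made after seeing the data.

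Glucose enters glycolysis through hexokinase, and its forms differed in opposite directions between muscles. Hk1, the hexokinase of most tissues (mm9 chr10:61731603-61803169), lay at 6.88, 10.7 and 16.3 RPKM in T2DM gastrocnemius, against 1.69, 2.0 and 2.22 RPKM in T2DM adductor. In control mice it lay at 8.36, 11.1 and 19.5 RPKM in gastrocnemius, against 1.57, 1.98 and 4.19 RPKM in adductor. Every gastrocnemius library lay above every adductor library in both mouse groups, as for 29% of all genes in T2DM mice and 33.3% in control mice. Hk1 differed by 2.18 ± 0.23 in T2DM mice (adjusted p = 8.39e-08) and 2.30 ± 0.23 in control mice (adjusted p = 3.48e-08). Hk2, the insulin-responsive muscle hexokinase (mm9 chr6:82675021-82724448), went the other way. It lay at 11.7, 22.3 and 50.9 RPKM in T2DM gastrocnemius, against 50.8, 53.8 and 63.7 RPKM in T2DM adductor, and at 13.7, 15.7 and 52 RPKM in control gastrocnemius, against 44.9, 59.2 and 69.1 RPKM in control adductor. The groups overlapped through T2DM gastrocnemius 2 and control gastrocnemius 3, with 50.9 and 52 RPKM. For Hk2 the log2 difference was -1.34 ± 0.30 in T2DM mice (adjusted p = 6.21e-04) and -1.56 ± 0.30 in control mice (adjusted p = 1.04e-04). Gpi1, glucose phosphate isomerase, which makes fructose 6-phosphate, was at 162 to 257 RPKM in T2DM gastrocnemius and 164 to 190.0 RPKM in T2DM adductor, and at 135 to 251 RPKM in control gastrocnemius and 152 to 253 RPKM in control adductor. These ranges overlapped, and neither difference was called, at 0.14 ± 0.17 in T2DM mice and -0.16 ± 0.17 in control mice.

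Phosphofructokinase, the committed step of glycolysis, showed the same opposition between its muscle form and the others. Pfkm, the muscle form, lay at 244, 359.8 and 718 RPKM in T2DM gastrocnemius, against 424, 623 and 1021 RPKM in T2DM adductor. In control mice it lay at 210.3, 320.3 and 860.0 RPKM in gastrocnemius, against 839, 995 and 1165 RPKM in adductor. Both pairs of groups overlapped, in control mice through gastrocnemius 3 at 860.0 RPKM. Pfkm differed by -0.79 ± 0.32 in T2DM mice (adjusted p = 0.0392) and -1.52 ± 0.32 in control mice (adjusted p = 2.55e-04). With set terms it was -0.64 ± 0.32 in T2DM mice (adjusted p = 0.0766), where the call ended. Pfkp, the platelet form, lay at 2.74, 5.35 and 7.55 RPKM in T2DM gastrocnemius, against 0.739, 0.941 and 1.31 RPKM in T2DM adductor, and at 3.66, 5.55 and 9.28 RPKM in control gastrocnemius, against 0.883, 1.11 and 1.99 RPKM in control adductor. No gastrocnemius value reached down to an adductor value in either mouse group. For Pfkp the log2 difference was 1.88 ± 0.23 in T2DM mice (adjusted p = 4.22e-07) and 1.94 ± 0.23 in control mice (adjusted p = 2.28e-07). Pfkl, the liver form, lay at 2.6, 5.82 and 8.91 RPKM in T2DM gastrocnemius, against 1.94, 2.17 and 2.75 RPKM in T2DM adductor, and at 2.57, 5.13 and 13.8 RPKM in control gastrocnemius, against 1.66, 1.98 and 2.37 RPKM in control adductor. The groups separated in control mice and overlapped in T2DM mice. Pfkl differed by 1.11 ± 0.31 in T2DM mice (adjusted p = 0.00411) and 1.33 ± 0.31 in control mice (adjusted p = 8.10e-04).

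Fructose 2,6-bisphosphate is the main activator of phosphofructokinase, and the genes that make it were among the members with the largest differences. Pfkfb3, the inducible kinase form (mm9 chr2:11393058-11475556), lay at 5.74, 10.6 and 23.7 RPKM in T2DM gastrocnemius, against 33.2, 48.6 and 64.4 RPKM in T2DM adductor. Control gastrocnemius lay at 4.57, 6.4 and 22.4 RPKM, against 40, 58.6 and 73.7 RPKM in control adductor. Gastrocnemius and adductor did not overlap in either mouse group, as for 2.33% of all genes below adductor in T2DM mice and 3% in control mice, and Pfkfb3 was the one member fully below adductor in T2DM mice. For Pfkfb3 the log2 difference was -2.13 ± 0.34 in T2DM mice (adjusted p = 1.17e-05) and -2.80 ± 0.34 in control mice (adjusted p = 2.99e-07). Pfkfb1, the liver and muscle form, lay at 1.11, 3.03 and 8.59 RPKM in T2DM gastrocnemius, against 5.74, 11 and 23.5 RPKM in T2DM adductor, and at 1.1, 1.81 and 5.92 RPKM in control gastrocnemius, against 11.3, 15.3 and 37.1 RPKM in control adductor. It overlapped in T2DM mice and separated in control mice. Pfkfb1 differed by -1.69 ± 0.44 in T2DM mice (adjusted p = 0.00204) and -2.90 ± 0.44 in control mice (adjusted p = 5.27e-06). Fbp2, which runs the reverse step in muscle, lay at 2.48 to 22 RPKM in T2DM gastrocnemius and 7.47 to 65.4 RPKM in T2DM adductor, and at 0.991 to 18.2 RPKM in control gastrocnemius and 18 to 60.7 RPKM in control adductor. It was lower in gastrocnemius by limma, with log2 differences of -1.95 ± 0.59 in T2DM mice (adjusted p = 0.00715) and -2.66 ± 0.59 in control mice (adjusted p = 4.52e-04).

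The middle of the pathway held the most abundant members. For Aldoa, whose levels are given above, the gastrocnemius and adductor groups separated in control mice, with the highest gastrocnemius library just below the lowest adductor library, and overlapped in T2DM mice. For Aldoa the log2 difference was -1.12 ± 0.40 in T2DM mice (adjusted p = 0.0204) and -1.51 ± 0.40 in control mice (adjusted p = 0.00236). Tpi1, triose phosphate isomerase, lay at 444 to 812 RPKM in T2DM gastrocnemius and 340.3 to 943 RPKM in T2DM adductor, and at 361 to 823 RPKM in control gastrocnemius and 654 to 993 RPKM in control adductor. Tpi1 differed by 0.04 ± 0.27 in T2DM mice (adjusted p = 0.923) and -0.71 ± 0.27 in control mice (adjusted p = 0.0257). The Tpi1 call in control mice ended with set terms, at -0.50 ± 0.28 (adjusted p = 0.105). Gapdh gave no call in either mouse group, with log2 differences of -0.42 ± 2.45 in T2DM mice and -0.27 ± 2.45 in control mice. Within the first set, Gapdh differed by -0.09 in T2DM mice and -0.58 in control mice, also without a call. In the second set Gapdh had 3.71 and 9.8 RPKM in T2DM gastrocnemius, against 13 and 13.7 RPKM in T2DM adductor. Its second-set values in control mice, all under 1 RPKM, overlapped between muscles. Pgk1, the first ATP-yielding step, lay at 5.32 to 285 RPKM in T2DM gastrocnemius and 21.9 to 270.4 RPKM in T2DM adductor, and at 13.9 to 324 RPKM in control gastrocnemius and 29.2 to 352 RPKM in control adductor. With set terms it differed by -0.10 ± 0.23 in T2DM mice and -0.17 ± 0.25 in control mice, with no call. With the sample number as a block Pgk1 was called lower in control mice, at -0.74 (adjusted p = 0.0274).

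Phosphoglycerate mutase gave no call in the pooled fit, and was called once terms for the library set or the sample number were in the fit. Pgam2, the muscle form, lay at 331, 745 and 2041 RPKM in T2DM gastrocnemius, against 544, 767 and 2251 RPKM in T2DM adductor, and at 254, 898 and 1591 RPKM in control gastrocnemius, against 832, 1697 and 2549 RPKM in control adductor. All groups overlapped. The log2 difference of Pgam2 was -0.37 ± 0.53 in T2DM mice (adjusted p = 0.569) and -1.09 ± 0.53 in control mice (adjusted p = 0.075). With set terms it was -0.41 ± 0.29 in T2DM mice (adjusted p = 0.215) and -1.15 ± 0.33 in control mice (adjusted p = 0.00345), where it was called lower. The blocked fit also called Pgam2 lower in control mice (adjusted p = 0.00124). Pgam1 had 47.9, 22.5, 67.5 and 76.9 RPKM in the first-set libraries of T2DM gastrocnemius, against 6.43, 8.54, 7.57 and 7.73 RPKM in those of T2DM adductor. In control mice of the first set it had 98.7, 109 and 19.6 RPKM in gastrocnemius, against 7.52, 13 and 6.33 RPKM in adductor. Gastrocnemius exceeded adductor in every one of these libraries. In the second set Pgam1 ranged from 0.419 to 0.46 RPKM in T2DM gastrocnemius, 0.451 to 1.43 RPKM in control gastrocnemius, 0.123 to 0.253 RPKM in T2DM adductor and 0.105 to 0.432 RPKM in control adductor. The pooled log2 difference of Pgam1 was 1.90 ± 1.36 in T2DM mice (adjusted p = 0.246) and 1.79 ± 1.36 in control mice (adjusted p = 0.261), and with set terms it was 2.57 ± 0.37 (adjusted p = 3.97e-06) in T2DM mice and 2.80 ± 0.41 (adjusted p = 5.79e-06) in control mice. In the blocked fit the adjusted p of Pgam1 was 0.00123 in T2DM mice and 0.00171 in control mice.

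Enolase, the next step, was called in the pooled fit, for Eno1 in both mouse groups and for Eno3 in control mice. Eno3, the muscle enolase, lay at 937, 1598 and 2092 RPKM in T2DM gastrocnemius, against 681, 1470.5 and 3537 RPKM in T2DM adductor. In control mice it lay at 725, 1468 and 2449 RPKM in gastrocnemius, against 2066, 2831 and 3399.6 RPKM in adductor. Both pairs of groups overlapped. For Eno3 the log2 difference was -0.07 ± 0.39 in T2DM mice (adjusted p = 0.901) and -0.95 ± 0.39 in control mice (adjusted p = 0.0366), and in control mice the call ended with set terms, at -0.72 ± 0.37 (adjusted p = 0.0856). Eno1 lay at 23.3, 116 and 203 RPKM in T2DM gastrocnemius, against 7.58, 15.6 and 19.1 RPKM in T2DM adductor, and at 36.8, 57.9 and 219 RPKM in control gastrocnemius, against 9.17, 12.4 and 40.4 RPKM in control adductor. Its groups separated in T2DM mice and overlapped in control mice. Eno1 differed by 2.62 ± 0.54 in T2DM mice (adjusted p = 2.35e-04) and 2.32 ± 0.54 in control mice (adjusted p = 6.80e-04). Within T2DM mice, Eno1 differed by 3.04 among first-set libraries and by 1.78 among second-set libraries, and within control mice by 2.55 and 2.08.

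Pyruvate kinase and lactate dehydrogenase close the pathway. Pkm, the pyruvate kinase of muscle and of most growing cells, lay at 298 to 837 RPKM in T2DM gastrocnemius and 647 to 799 RPKM in T2DM adductor, and at 283 to 1003 RPKM in control gastrocnemius and 778 to 1073 RPKM in control adductor. For Pkm the log2 difference was -0.70 ± 0.27 in T2DM mice (adjusted p = 0.0288) and -1.01 ± 0.27 in control mice (adjusted p = 0.00206), and in T2DM mice the call ended with set terms, at -0.47 ± 0.22 (adjusted p = 0.06). Ldha, which favours lactate formation, lay at 485, 605 and 1015 RPKM in T2DM gastrocnemius, against 437, 863 and 1515 RPKM in T2DM adductor. Control gastrocnemius had 482, 679 and 1091 RPKM, against 1003, 1423 and 1606 RPKM in control adductor. Both pairs overlapped, more widely in T2DM mice. Ldha differed by -0.41 ± 0.30 in T2DM mice (adjusted p = 0.253) and -0.98 ± 0.30 in control mice (adjusted p = 0.00631), and the control call ended with set terms, at -0.65 ± 0.30 (adjusted p = 0.0524). Ldhb, the heart form, lay at 22.6, 31.9 and 64.9 RPKM in T2DM gastrocnemius, against 44.6, 58.8 and 66.9 RPKM in T2DM adductor, and at 18.1, 21.2 and 52.4 RPKM in control gastrocnemius, against 23.2, 43.3 and 57.2 RPKM in control adductor. All groups overlapped, in control mice through gastrocnemius 3 at 52.4 RPKM. For Ldhb the log2 difference was -0.77 ± 0.28 in T2DM mice (adjusted p = 0.0205) and -0.67 ± 0.28 in control mice (adjusted p = 0.0385).

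The alternative exons of Pkm allowed a look at the M1 and M2 forms, of which M1 is the form of adult muscle and M2 that of proliferating cells. The forms differ in 1 exon of 167 bases each, with the M1 exon at chr9:59675029-59675195 and the M2 exon at chr9:59675568-59675734 on the plus strand of GRCm38. The deposited table gives a value for each transcript, and since all other exons are the same, the difference of the 2 gives the reads of the M1 exon minus those of the M2 exon. This difference was divided by the level of the transcript, so that a value near 1 is mostly M1 and a negative value mostly M2. In the first set it was -0.05 to 0.75 in T2DM gastrocnemius, -0.27 to 0.77 in control gastrocnemius, 0.82 to 0.88 in T2DM adductor and 0.86 to 0.87 in control adductor. The adductor libraries were close to each other and all above every gastrocnemius library of this set. In the second set it was 0.21 to 1.37 in T2DM gastrocnemius, 0.57 to 1.02 in control gastrocnemius, 1.91 to 2.02 in T2DM adductor and 1.51 to 1.73 in control adductor. Gastrocnemius again lay below adductor, but values above 1 cannot be shares of the transcript. Of the 31-base words of the M2 exon 59.1% occurred at other loci, and of those of the M1 exon 0%. The inner exons common to both forms, which enter the transcript level, had 50.36% to 85.95% of their words at other loci. The part of all these copies in the values of either set was not tested.

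Lactate leaves and enters cells through monocarboxylate transporters. Slc16a3, which encodes MCT4, the exporter of glycolytic fibres (mm9 chr11:120810381-120820314), lay at 23.3, 38.9 and 73.1 RPKM in T2DM gastrocnemius, against 19.9, 28.5 and 82.5 RPKM in T2DM adductor. In control mice it lay at 31.9, 36.1 and 67.4 RPKM in gastrocnemius, against 52.3, 77.3 and 148 RPKM in adductor. The ranges overlapped in both mouse groups, in control mice through gastrocnemius 3. Slc16a3 differed by 0.13 ± 0.36 in T2DM mice (adjusted p = 0.785) and -1.11 ± 0.36 in control mice (adjusted p = 0.00905), and the control call ended with set terms, at -0.63 ± 0.29 (adjusted p = 0.0585). Slc16a1, which encodes MCT1, the transporter of oxidative cells, lay at 6.34, 9.88 and 12.4 RPKM in T2DM gastrocnemius, against 6.25, 8.09 and 14.4 RPKM in T2DM adductor, and at 8.95, 10.8 and 13 RPKM in control gastrocnemius, against 6.4, 9.24 and 16.5 RPKM in control adductor. These groups overlapped over most of their ranges. For Slc16a1 the log2 difference was 0.10 ± 0.21 in T2DM mice (adjusted p = 0.706) and 0.08 ± 0.21 in control mice (adjusted p = 0.748).

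Muscle glycogen phosphorylase was lower in gastrocnemius, and the other phosphorylase forms were higher. Pygm, muscle glycogen phosphorylase, the enzyme missing in McArdle disease (mm9 chr19:6384429-6398459), lay at 375, 655 and 1556 RPKM in T2DM gastrocnemius, against 1167, 1869 and 2677 RPKM in T2DM adductor. In control mice it lay at 292, 585 and 1305 RPKM in gastrocnemius, against 1809, 2363 and 3294 RPKM in adductor. The groups separated in control mice and overlapped in T2DM mice. Pygm differed by -1.45 ± 0.37 in T2DM mice (adjusted p = 0.00206) and -2.05 ± 0.37 in control mice (adjusted p = 5.17e-05). Pygb, the brain form, lay at 5.12, 8.23 and 14.9 RPKM in T2DM gastrocnemius, against 1.33, 1.88 and 2.87 RPKM in T2DM adductor, and at 5.79, 8.15 and 16.8 RPKM in control gastrocnemius, against 0.80, 1.97 and 3.61 RPKM in control adductor. No gastrocnemius value reached down to an adductor value. For Pygb the log2 difference was 1.91 ± 0.31 in T2DM mice (adjusted p = 1.38e-05) and 1.99 ± 0.31 in control mice (adjusted p = 6.70e-06). Pygl, the liver form, lay at 2.36, 3.7 and 8.65 RPKM in T2DM gastrocnemius, against 0.774, 0.909 and 1.1 RPKM in T2DM adductor, and at 1.78, 3.38 and 9.38 RPKM in control gastrocnemius, against 0.429, 1.7 and 3.79 RPKM in control adductor. It separated in T2DM mice and overlapped in control mice. Pygl differed by 1.68 ± 0.38 in T2DM mice (adjusted p = 6.50e-04) and 1.21 ± 0.38 in control mice (adjusted p = 0.00845).

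All 3 phosphorylase kinase subunits among the members were lower in gastrocnemius in both mouse groups. Phkg1, the catalytic subunit of muscle, lay at 11.3, 15.4 and 64.7 RPKM in T2DM gastrocnemius, against 53.9, 91.4 and 222 RPKM in T2DM adductor, and at 8.66, 19 and 61.6 RPKM in control gastrocnemius, against 111, 137 and 213 RPKM in control adductor. The control groups separated and the T2DM groups overlapped. For Phkg1 the log2 difference was -2.20 ± 0.44 in T2DM mice (adjusted p = 1.89e-04) and -2.91 ± 0.44 in control mice (adjusted p = 5.79e-06). Phka1, the regulatory alpha subunit of muscle, lay at 10.3 to 69.4 RPKM in T2DM gastrocnemius and 39.1 to 164 RPKM in T2DM adductor, and at 9.05 to 69 RPKM in control gastrocnemius and 103 to 172 RPKM in control adductor. Its highest gastrocnemius values, 69.4 and 69 RPKM, were those of the 2 libraries that stood apart. Phka1 differed by -2.17 ± 0.44 in T2DM mice (adjusted p = 2.04e-04) and -2.84 ± 0.44 in control mice (adjusted p = 7.33e-06). Phkb, the regulatory beta subunit, lay at 8.4, 16.2 and 49.7 RPKM in T2DM gastrocnemius, against 40.8, 80.3 and 103 RPKM in T2DM adductor, and at 10.8, 13.7 and 46.1 RPKM in control gastrocnemius, against 64.4, 72.8 and 100.4 RPKM in control adductor. As with Phkg1 and Phka1, the groups separated in control mice and overlapped in T2DM mice. Phkb differed by -2.14 ± 0.36 in T2DM mice (adjusted p = 2.36e-05) and -2.24 ± 0.36 in control mice (adjusted p = 1.09e-05). Without the 2 libraries that stood apart, the differences of the 3 subunits were larger, with Phka1 at -2.51 (adjusted p = 5.69e-07) in T2DM mice and -3.22 (adjusted p = 1.41e-08) in control mice.

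The genes of glycogen synthesis were lower in gastrocnemius wherever they were called. Gys1, muscle glycogen synthase, lay at 46.7 to 128 RPKM in T2DM gastrocnemius and 63.2 to 122 RPKM in T2DM adductor, and at 46.7 to 124 RPKM in control gastrocnemius and 100.0 to 134 RPKM in control adductor. It differed by -0.48 ± 0.24 in T2DM mice (adjusted p = 0.0858) and -0.75 ± 0.24 in control mice (adjusted p = 0.00864), and all groups overlapped. With the sample number as a block Gys1 was called lower in T2DM mice as well (adjusted p = 0.0496). Gyg, the glycogenin primer on which a glycogen particle starts, lay at 66.2 to 147 RPKM in T2DM gastrocnemius and 138 to 234 RPKM in T2DM adductor, and at 58.7 to 136 RPKM in control gastrocnemius and 115 to 204 RPKM in control adductor. Gyg differed by -0.84 ± 0.24 in T2DM mice (adjusted p = 0.00502) and -0.67 ± 0.24 in control mice (adjusted p = 0.0198), and the control call ended with set terms, at -0.49 ± 0.25 (adjusted p = 0.085). The branching enzyme gene Gbe1 was the least abundant of the synthesis genes, at 3.38 to 14 RPKM in T2DM gastrocnemius and 12 to 18.9 RPKM in T2DM adductor, and at 4.66 to 15.3 RPKM in control gastrocnemius and 10.1 to 18.4 RPKM in control adductor. Gbe1 differed by -1.16 ± 0.29 in T2DM mice (adjusted p = 0.00179) and -0.79 ± 0.29 in control mice (adjusted p = 0.0233), and its control call also ended with set terms, at -0.60 ± 0.36 (adjusted p = 0.138).

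Ugp2, which makes the UDP-glucose that glycogen synthase uses, lay at 39.5 to 177 RPKM in T2DM gastrocnemius and 119.8 to 259 RPKM in T2DM adductor, and at 43.5 to 147 RPKM in control gastrocnemius and 95.4 to 283 RPKM in control adductor. It differed by -0.96 ± 0.41 in T2DM mice (adjusted p = 0.0495) and -0.84 ± 0.41 in control mice (adjusted p = 0.0786), and with set terms it was called in control mice as well, at -0.86 ± 0.34 (adjusted p = 0.0259), as in the blocked fit (adjusted p = 0.0063). Phosphoglucomutase links glycogen to glycolysis by exchanging glucose 1-phosphate and glucose 6-phosphate. The abundant gene, Pgm2 of the table, lay at 119, 168 and 321 RPKM in T2DM gastrocnemius, against 301, 354 and 678 RPKM in T2DM adductor, and at 105, 189.6 and 336 RPKM in control gastrocnemius, against 338, 483 and 588 RPKM in control adductor. Its control groups were separated narrowly, and its T2DM groups overlapped. Pgm2 differed by -1.12 ± 0.31 in T2DM mice (adjusted p = 0.00317) and -1.32 ± 0.31 in control mice (adjusted p = 6.58e-04). The scarce gene, Pgm1 of the table, went the other way. It lay at 2.37, 3.6 and 6.82 RPKM in T2DM gastrocnemius, against 0.287, 0.709 and 0.809 RPKM in T2DM adductor, and at 2.39, 4.54 and 8.42 RPKM in control gastrocnemius, against 0.409, 0.717 and 1.71 RPKM in control adductor. The muscles did not overlap in either mouse group. As a description, since Pgm1 passed the filter through gastrocnemius alone, its log2 difference was 1.96 ± 0.29 in T2DM mice and 2.01 ± 0.29 in control mice.

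Ratios of 2 forms within a library are given as a description, each as the difference in log2(RPKM + 0.5). The library total cancels in such a ratio except through the 0.5, which weighs on forms near or under 1 RPKM, among them Pfkp and Pygl in adductor and Pgam1 in the second set. The log2 ratio of Hk2 to Hk1 was 0.96 ± 1.17 in T2DM gastrocnemius, against 4.48 ± 0.11 in T2DM adductor, and 0.57 ± 1.1 in control gastrocnemius, against 4.43 ± 0.63 in control adductor (mean ± SD, n = 6 each). No gastrocnemius ratio reached an adductor ratio in either mouse group. The same separation in both mouse groups held for Pfkm to Pfkp, at 6.13 ± 1.11 in T2DM gastrocnemius, against 8.79 ± 0.50 in T2DM adductor, and 5.71 ± 1.16 in control gastrocnemius, against 9.18 ± 0.44 in control adductor. It held for Pygm to Pygb, at 6.23 ± 1.33 in T2DM gastrocnemius, against 9.58 ± 0.64 in T2DM adductor, and 5.91 ± 1.39 in control gastrocnemius, against 9.95 ± 0.85 in control adductor. Pygm to Pygl was the last of the 4 ratios of this kind, at 7.22 ± 1.41 in T2DM gastrocnemius, against 10.36 ± 0.50 in T2DM adductor, and 6.96 ± 1.55 in control gastrocnemius, against 10.22 ± 1.1 in control adductor.

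The log2 ratios of Pfkm to Pfkl and of Eno3 to Eno1 separated the muscles in control mice and overlapped in T2DM mice. Eno3 to Eno1 was 4.1 ± 1.73 in T2DM gastrocnemius, against 6.79 ± 1.44 in T2DM adductor, and 4.18 ± 1.75 in control gastrocnemius, against 7.45 ± 1.0 in control adductor. Pfkm to Pfkl was 6.02 ± 1.19 in T2DM gastrocnemius, against 7.92 ± 0.64 in T2DM adductor, and 5.78 ± 1.54 in control gastrocnemius, against 8.63 ± 0.27 in control adductor. Aldoc was too near the floor for a ratio to Aldoa. Pgam2 to Pgam1 overlapped in the pooled libraries and separated within each set. In the first set it was 3.37 ± 1.39 in T2DM gastrocnemius (n = 4), against 6.38 ± 0.38 in T2DM adductor (n = 4), and 2.8 ± 2.31 in control gastrocnemius (n = 3), against 6.71 ± 0.35 in control adductor (n = 3). Ldha to Ldhb overlapped between muscles in the pooled libraries and within each set, at 4.23 ± 0.27 in T2DM gastrocnemius, against 3.86 ± 0.80 in T2DM adductor, and 4.8 ± 0.40 in control gastrocnemius, against 5.1 ± 0.77 in control adductor. Slc16a3 to Slc16a1 also overlapped in the pooled libraries, at 1.98 ± 0.61 in T2DM gastrocnemius, against 1.96 ± 0.49 in T2DM adductor, and 1.8 ± 0.41 in control gastrocnemius, against 3.0 ± 0.30 in control adductor, and it separated in the second-set libraries of control mice.

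**Figure D3:**
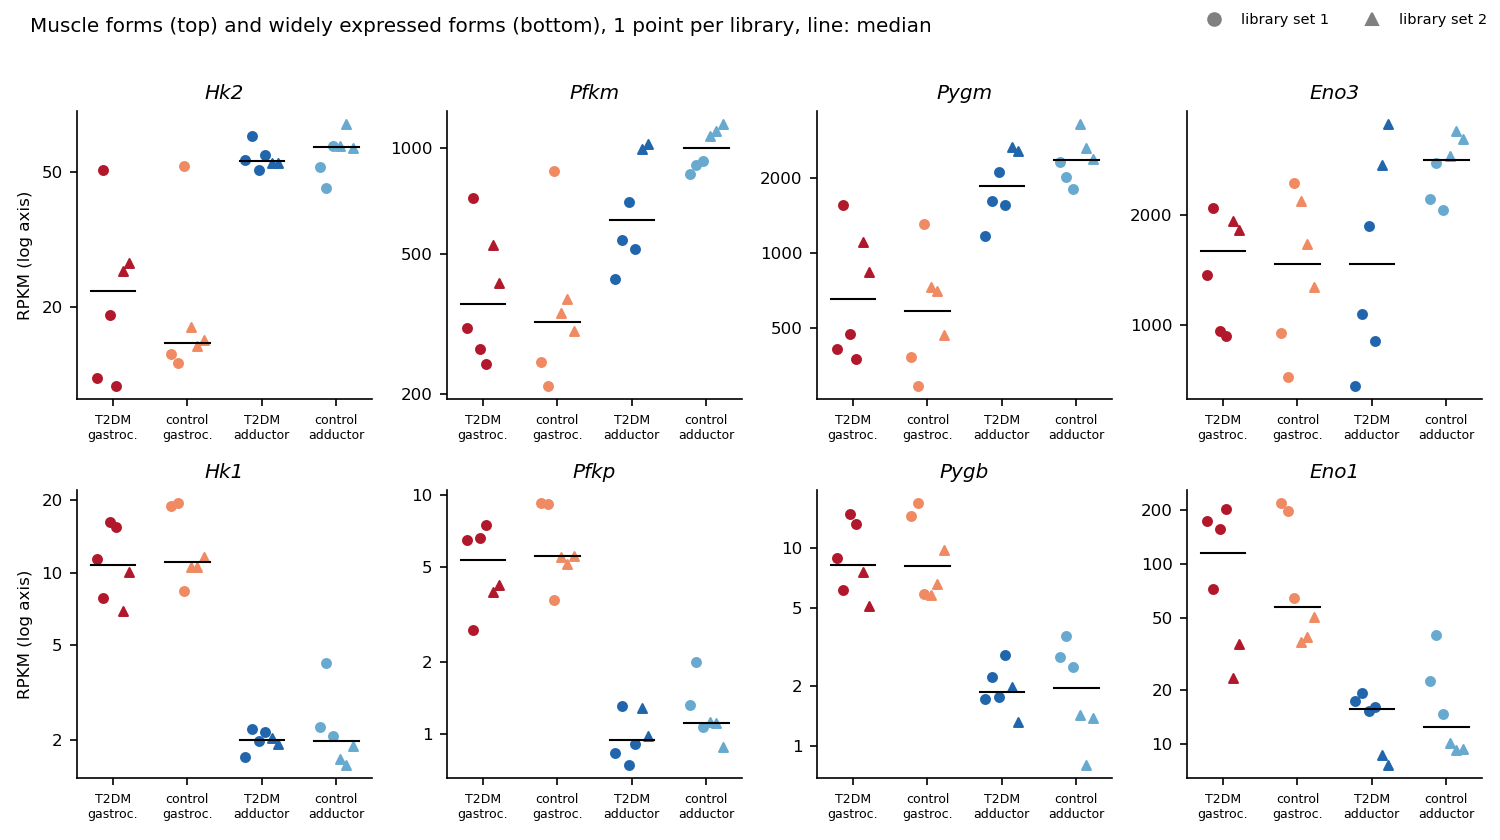
RPKM (vertical axes, log scale) of muscle forms in the top row and of the forms of other cells in the bottom row, with 1 point per library, circles for the first and triangles for the second library set, and a line at the median of each group. In the top row the gastrocnemius medians of Hk2, Pfkm and Pygm lie below the adductor medians, and in the bottom row those of Hk1, Pfkp, Pygb and Eno1 lie above them.

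Other genes of these pathways, from lists of 21, 22, 20 and 10 genes that are not members, gave the following counts. Beside them, 48.1% of all tested genes were higher and 8.83% lower in T2DM mice, and 54.4% and 8.7% in control mice. Of 13 tested genes of other glycolytic and gluconeogenic forms, 5 were higher and 5 lower in the gastrocnemius of T2DM mice, and 5 were higher and 4 lower in control mice. Pck2, the mitochondrial form of phosphoenolpyruvate carboxykinase, was higher by 1.96 ± 0.26 in T2DM mice (adjusted p = 1.23e-06) and 2.13 ± 0.26 in control mice (adjusted p = 3.23e-07). Of 18 other glycogen genes, 6 were higher and 5 lower in T2DM mice, and 7 were higher and 5 lower in control mice. Ppp1r3c, a subunit that targets protein phosphatase to glycogen, differed by -1.20 ± 0.67 in T2DM mice (adjusted p = 0.131) and -1.98 ± 0.67 in control mice (adjusted p = 0.013). Of 17 genes of pyruvate and lactate fate, 3 were higher and 4 lower in T2DM mice, and 3 were higher and 6 lower in control mice. Emb, embigin, a partner of the lactate transporters, differed by 1.77 ± 0.35 in T2DM mice (adjusted p = 1.74e-04) and 2.97 ± 0.35 in control mice (adjusted p = 2.64e-07), and Pdk4, a pyruvate dehydrogenase kinase, was not called at -1.12 ± 0.71 and -1.49 ± 0.71. Of 10 pentose phosphate genes, 6 were higher and 1 lower in T2DM mice, and 6 were higher and 0 lower in control mice. G6pdx, glucose 6-phosphate dehydrogenase, which opens that pathway, lay at 4.64, 6.02 and 11.6 RPKM in T2DM gastrocnemius, against 1.51, 1.92 and 2.18 RPKM in T2DM adductor. It differed by 1.65 ± 0.33 in T2DM mice (adjusted p = 1.90e-04) and 1.75 ± 0.33 in control mice (adjusted p = 7.93e-05).

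The second comparison set T2DM mice against control mice within each muscle. No member was called in either muscle, and none was called for the difference between muscles (limma, 0 of 34 in each). The share of all genes called was 0.00808% in gastrocnemius, 0.0323% in adductor and 0% for the difference. At an unadjusted p under 0.05, 0 members passed in gastrocnemius, 4 in adductor and 1 for the difference, against 1.26%, 2.74% and 1.24% of all genes. limma-voom on read counts recovered from the RPKM also called 0 members in each, and 0.0162%, 0.0323% and 0% of all genes. In the second library set taken alone, Gapdh was called higher in T2DM mice, at 2.48 in gastrocnemius (adjusted p = 0.0378) and 3.60 in adductor (adjusted p = 0.00888), as were 0.162% and 0.0969% of all genes. That fit rests on 2 T2DM and 3 control libraries per muscle, all with under 14 RPKM of Gapdh, as listed above. All 34 members overlapped between T2DM and control libraries in both muscles. The markers of fibres and other cells gave 0 calls in these comparisons, but not all lay near 0. The 8 slow fibre genes had a median log2 difference of 0.86 in adductor, with sums of 463 to 1126 RPKM in T2DM adductor and 225 to 741 RPKM in control adductor. Within the second set the slow fibre sums did not overlap, at 697 to 708 RPKM in T2DM adductor and 225 to 370.1 RPKM in control adductor. In gastrocnemius their median was 0.51, with sums of 941 to 2023 RPKM in T2DM mice and 901 to 1756 RPKM in control mice. The 5 tested erythroid genes had medians of -2.18 in gastrocnemius and -1.49 in adductor, with sums of 14.4 to 174 RPKM in T2DM gastrocnemius and 78.3 to 555 RPKM in control gastrocnemius, and of 39.8 to 208 RPKM in T2DM adductor and 98.5 to 1327 RPKM in control adductor. The part of these cells and fibres in the members' values was not tested.

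**Figure D4:**
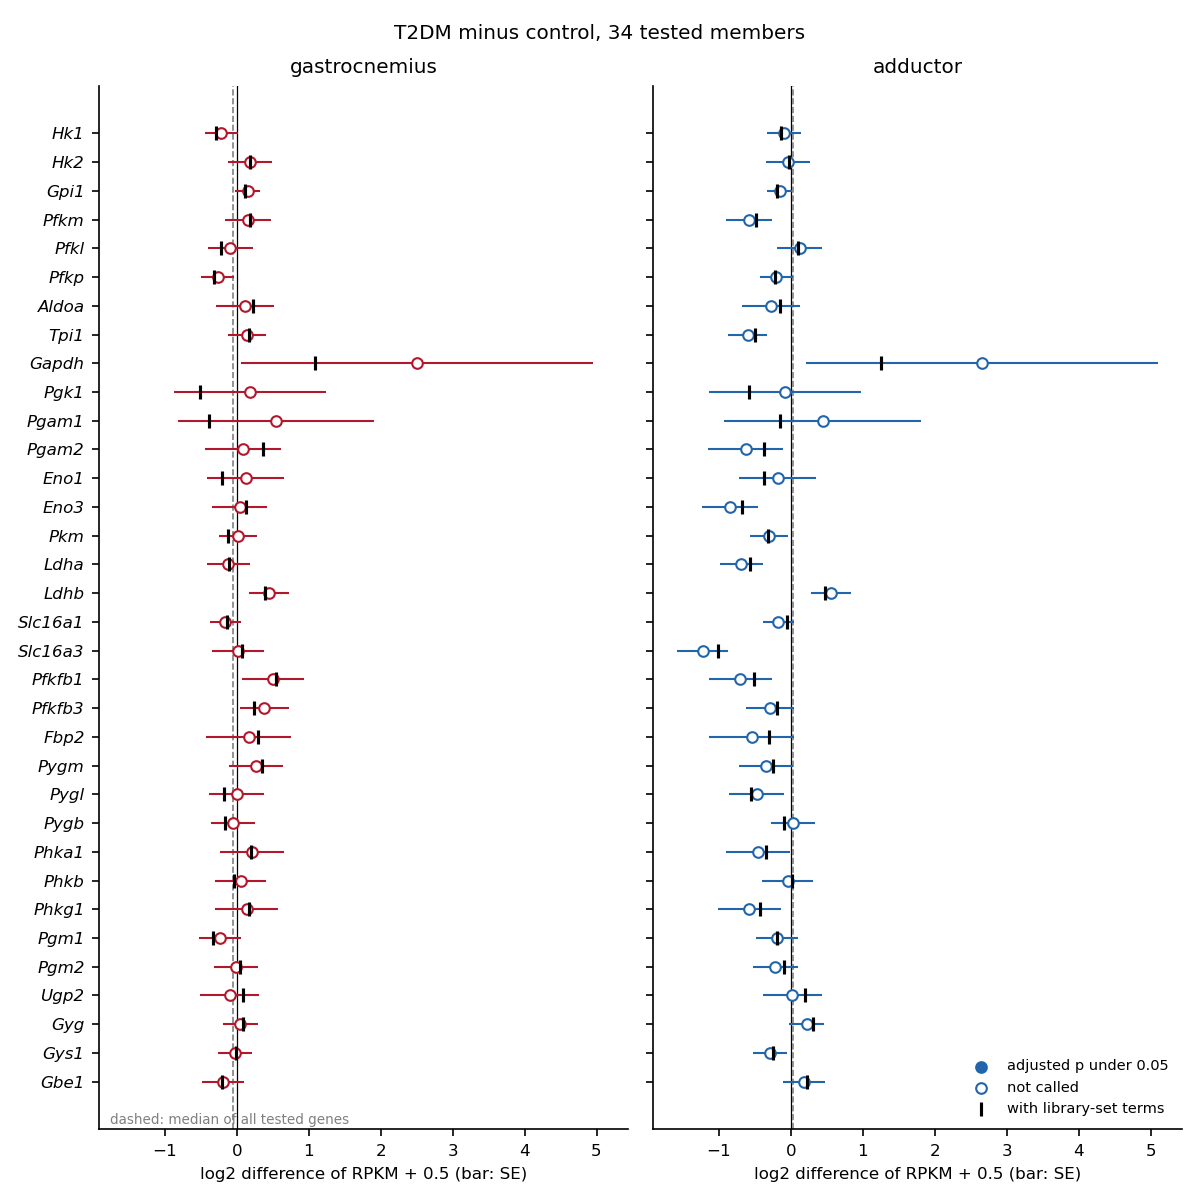
Log2 difference in RPKM, T2DM minus control, of the tested members (horizontal axis, with bars of 1 SE from limma) in gastrocnemius and in adductor. Black ticks give the fit with library-set terms and the dashed line the median of all tested genes. In adductor Slc16a3 lies at -1.22 and Ldhb at 0.55, and no member in either muscle passed the adjusted test.

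In adductor 8 members had a positive and 26 a negative log2 difference, with a median of -0.21 against 0.04 over all genes. The median was -0.40 in the first set and -0.03 in the second. Slc16a3 had the smallest p, and its levels are given above. It was 19.9, 24.1, 32.9 and 23.9 RPKM in the first-set libraries of T2DM adductor, against 64.8, 64.9 and 52.3 RPKM in those of control adductor. In the second set it was 71.7 and 82.5 RPKM in T2DM adductor, against 131, 148 and 89.7 RPKM in control adductor. T2DM values lay below control values within each set, as for 3.69% of all genes in the first set and 6.78% in the second, while the pooled groups overlapped because levels were higher in the second set. The log2 difference from limma was -1.22 ± 0.36 (adjusted p = 0.966), and with set terms it was -1.01 ± 0.24 (adjusted p = 0.244). It was called with set terms when the 2 gastrocnemius libraries that stood apart were also left out, at -1.01 (adjusted p = 0.0238), an alternative chosen after seeing the data in which 0.0323% of all genes were lower. The log2 ratio of Slc16a3 to Slc16a1 was 1.96 ± 0.49 in T2DM adductor, against 3.0 ± 0.30 in control adductor (mean ± SD, n = 6 each), and T2DM ratios were below control ratios within each set.

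Ldha, Tpi1 and Eno3 followed in adductor. Ldha was at 437, 863 and 1515 RPKM in T2DM adductor, against 1003, 1423 and 1606 RPKM in control adductor, with a log2 difference of -0.69 ± 0.30 (adjusted p = 1). Tpi1 was at 340.3, 553 and 943 RPKM in T2DM adductor, against 654, 909.9 and 993 RPKM in control adductor, with a log2 difference of -0.60 ± 0.27 (adjusted p = 1). Eno3 was at 681, 1470.5 and 3537 RPKM in T2DM adductor, against 2066, 2831 and 3399.6 RPKM in control adductor, with a log2 difference of -0.84 ± 0.39 (adjusted p = 1). For all 3 the lowest library was a T2DM one, and the ranges overlapped. Within sets, Ldha differed by -0.86 in the first and -0.14 in the second, Tpi1 by -0.85 and -0.00, and Eno3 by -1.14 and -0.03. Ldhb had a positive difference, at 0.55 ± 0.28 (adjusted p = 1). The log2 ratio of Ldha to Ldhb was 3.86 ± 0.80 in T2DM adductor, against 5.1 ± 0.77 in control adductor, with overlap in the pooled libraries and in the second set and none in the first.

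**Figure D5:**
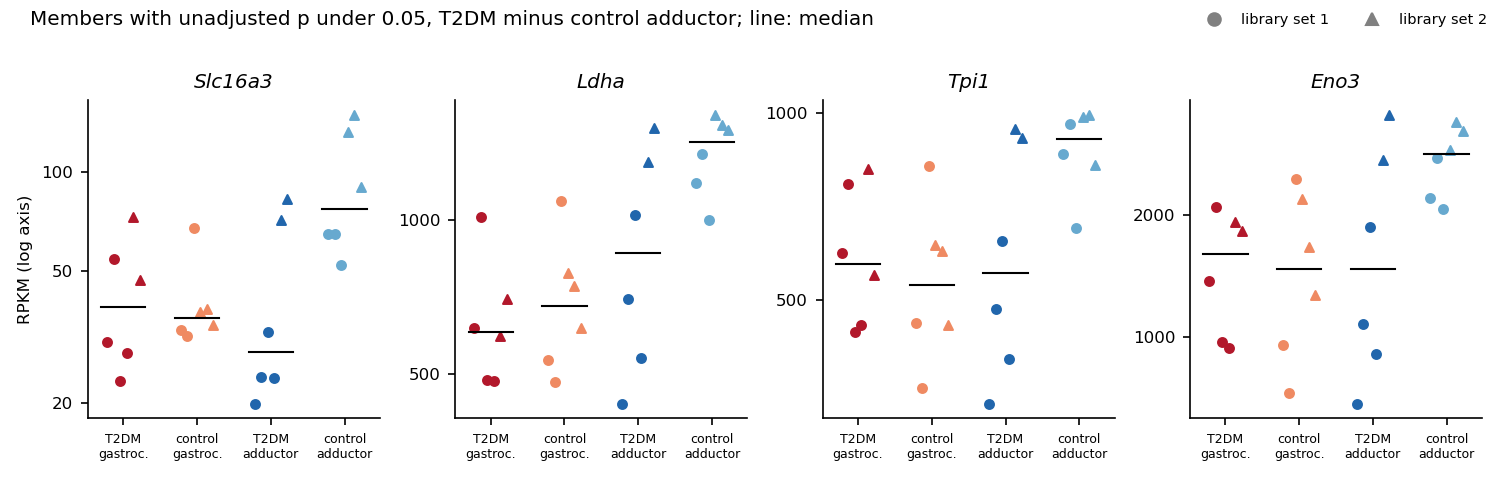
RPKM of Slc16a3, Ldha, Tpi1 and Eno3 (vertical axes, log scale) in the libraries of the 4 groups, with circles for the first and triangles for the second library set and a line at the median of each group. Slc16a3 is 19.9 to 32.9 RPKM in T2DM and 52.3 to 64.9 RPKM in control adductor of the first set, and 71.7 to 82.5 RPKM in T2DM and 89.7 to 148 RPKM in control adductor of the second.

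In gastrocnemius 22 members had a positive and 12 a negative log2 difference, with a median of 0.07 against -0.06 over all genes. The sign of that median rests on single libraries, since it was -0.08 without T2DM gastrocnemius 2, -0.02 without control gastrocnemius 2 and 0.22 without control gastrocnemius 3, and -0.08 in the first set alone. The 3 with the smallest p were Ldhb at 0.45 ± 0.28, Pfkp at -0.27 ± 0.23 and Pfkfb1 at 0.50 ± 0.44 (adjusted p = 1, 1 and 1). Each of these overlapped between T2DM and control gastrocnemius. For the T2DM effect in gastrocnemius minus that in adductor, the 3 with the smallest p were Slc16a3 at 1.24 ± 0.50, Pfkfb1 at 1.21 ± 0.62 and Tpi1 at 0.74 ± 0.38 (adjusted p = 1, 1 and 1). None of the other pathway genes was called in any of these 3 comparisons. Among them, Ppp1r3c differed by 0.07 ± 0.67 in gastrocnemius and -0.71 ± 0.67 in adductor, and Pdk4 by -0.09 ± 0.71 and -0.46 ± 0.71. The intervals of the members remained wide, with an SE on the log2 scale of 0.17 to 0.59 in adductor outside Gapdh, Pgam1 and Pgk1. Differences well above the SE also went uncalled, as for Slc16a3 in adductor. The lack of calls therefore leaves room for differences of that size.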

How the data were processed

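The deposited values are RPKM. Per the file headers, the authors made them in HOMER from reads on RefSeq exons (build mm9), with 1 row per transcript. The submitters' processing notes also list TopHat, and give no versions. No strand option is set in the header command, so a gene's reads cannot be separated from those of an overlapping or antisense gene. Treatment of reads with several matches is not given in the sources used here. Library totals in the headers were 7.13 to 15.6 M reads. RPKM times length and total gave whole reads within 0.01 for 99.97% of values, and floors of 3 reads cover counting error only.

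From 33022 transcripts, the one with the highest mean RPKM stood for each of 24016 symbols. Genes with RPKM of 1 in 6 libraries (12382) were fitted as log2(RPKM + 0.5) in limma 3.58.1 (R 4.3.3), with 4 group means, a variance trend and Benjamini-Hochberg adjustment per contrast across all genes. Fold changes on this scale are understated for low genes. Differences are ± SE. Settings tried were other pseudocounts, filters, scalings and transcripts, limma-voom on recovered reads, library-set terms, each set alone, a replicate block, and each library left out. Same-numbered gastrocnemius and adductor libraries of a mouse group deviated together (r from 0.25 to 0.74 over 12 pairs). Within the library sets r ran from -0.09 to 0.63, so the numbers were not shown to pair the muscles. The p-values given are from the fit without the replicate block. Blocked values are an alternative, added where the block changed a call. The members and lists were chosen with earlier results of these data known. All 35 members are accounted for, the forms of paired enzymes in full, and other pathway genes are named by smallest p up to 3 per list, with Ppp1r3c, Pdk4 and G6pdx always. A gene that this rule also names is not reported here. Words of 31 bases and promoters came from GENCODE and RefSeq on GRCm38, and mm9 coordinates were not mixed with them.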

Additional observations from a re-analysis of the deposited data

Results flagged for a closer look

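In 9 of 140 groups of 6 libraries, the highest or lowest value of a member stood far from the other 5, with a gap above Dixon's critical value. For independent values with a normal spread, chance gives about 1 in 20 such groups, and the 9 found are not far from that rate. The rate is a rough guide here, since each group mixes 2 library sets. Control gastrocnemius 3 gave 6 of the 9, all as the highest value, and as values of 1 library these are not separate events. It had 52.0 RPKM of Hk2 (hexokinase 2), against 13.7 to 17.5 RPKM in the other control gastrocnemius libraries. It had 52.4 RPKM of Ldhb (lactate dehydrogenase B), against 18.1 to 23.7 RPKM, and 67.4 RPKM of Slc16a3 (the lactate exporter), against 31.9 to 38.5 RPKM. Of the phosphorylase kinase subunits, Phka1 had 69.0 RPKM, against 9.05 to 19.1 RPKM, and Phkb had 46.1 RPKM, against 10.8 to 16.6 RPKM. Pfkfb1, a kinase for fructose 2,6-bisphosphate, had 5.92 RPKM, against 1.1 to 2.1 RPKM. The other 3 were in adductor. Hk1 was 4.19 RPKM in control adductor 2, against 1.57 to 2.26 RPKM in the other control adductor libraries. Pgm1 of the table was 0.287 RPKM in T2DM adductor 1, against 0.693 to 0.809 RPKM in the other T2DM adductor libraries. Gpi1 was 164 RPKM in T2DM adductor 6, against 180 to 190 RPKM in the others.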

How the results depend on the processing

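No alternative reversed the direction of a called member. For the muscle comparison, leaving out each of the 24 libraries in turn gave 7 members higher and 12 to 17 lower in T2DM mice, and 7 higher and 15 to 21 lower in control mice. Of all 12382 tested genes, 6014 were higher and 1226 lower in T2DM mice without T2DM gastrocnemius 2. Without control gastrocnemius 3, 6782 genes were higher and 1176 lower in control mice. In T2DM mice 18 of 23 called members stayed called in all of these fits, and Aldoa, Ldhb, Pfkm, Pkm and Ugp2 did not. In control mice 22 of 27 did, and Eno3, Gbe1, Gyg, Ldhb and Tpi1 did not. With library-set terms and 1 library left out, 8 to 9 members were higher and 14 to 17 lower in T2DM mice, and 8 to 9 were higher and 12 to 22 lower in control mice. With all 24 libraries, set terms called 60.5% of all genes higher and 9.26% lower in T2DM mice, and 66.1% and 7.12% in control mice. The first set alone gave 8 higher and 11 lower in T2DM mice and 8 and 10 in control mice, and the second set alone gave 5 and 18 in T2DM mice and 8 and 22 in control mice. Of all 12382 genes, the first set alone called 7101 higher and 926 lower in T2DM mice, and 7347 and 594 in control mice. The second set alone called 4363 and 1621 genes in T2DM mice, and 6349 and 1512 in control mice. limma-voom gave 6 and 18 members in T2DM mice, against 3482 and 3085 of all genes. In control mice it gave 6 and 24 members, against 3542 and 3195 of all genes. The replicate block treats same-numbered muscles as pairs, although such pairing was not shown. It moved no count of calls by more than 1.5 times, with 8 and 17 in T2DM mice and 8 and 23 in control mice. For T2DM against control, sample numbers gave r from -0.66 to 0.82 and do not pair the mice, and the block gave 0 calls in either muscle. The 0 calls in these comparisons became 1 in 3 fits, which were the second set alone in adductor and in gastrocnemius (1 each, Gapdh) and, in adductor, set terms without T2DM gastrocnemius 2 and control gastrocnemius 3 (1, Slc16a3). The cause was not tested. Leaving out single libraries gave 0 in all 3 comparisons. Depth limits the scarce members most, since Aldoc, Pgam1 in the second set and Pgm1 in adductor lie within a few RPKM of the floor. So do Hk1, Pfkl, Pfkp, Pygb and Pygl in adductor, which were called higher in gastrocnemius.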
